A study of Drosophila melanogaster with 4 samples.

Results

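The regions described here are H3K23ac clusters, stretches that the authors listed as enriched in ChIP-seq for histone H3 acetylated at lysine 23. They lie where the chromosome arms of Drosophila melanogaster run into pericentric heterochromatin, or on chromosome 4. They were chosen by position alone. A cluster was a member if it started at or beyond position 20000001 of 2L, 21000001 of 3L or 20000001 of X, at or before position 2000000 of 3R, or anywhere on chromosome 4 or on the assembled heterochromatin sequences XHet, 2LHet, 3LHet, 3RHet and YHet (FlyBase release 5). This took in 490 of the 6267 clusters of ChIP replicate 1, 872 of the 11757 of ChIP replicate 2 and 1354 of the 17999 of the replicate set, the list that the authors made for both replicates together. The chromatin came from nuclei of larvae at the third instar of the wild-type strain Oregon-R-modENCODE, with no transgene or treatment named. The series holds 4 libraries, of which 2 are H3K23ac precipitates and 2 are inputs, and each input was paired with the precipitate of its number in the labels. Lists of the inputs were not analysed here. Larvae hold many cell types, the labels name no tissue, and a smaller share of cells carrying the mark and less of it per cell cannot be told apart here.

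Pericentric heterochromatin surrounds each centromere. It is built largely of repeated sequence, carries methylated lysine 9 of histone H3 and binds heterochromatin protein HP1. Acetylated histone tails are, in general, a feature of open and transcribed chromatin. Genes do lie in and beside this heterochromatin, and in Drosophila melanogaster chromosome 4 is a small chromosome where active genes are interspersed with repeats and with HP1-bound chromatin. Genes at the positions given were not analysed here.

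Coverage, the share of a sequence lying inside clusters, differed from border to border. The 2L border was covered to 8.33% (replicate 1), 14.98% (replicate 2) and 26.9% (replicate set), against 11.7%, 25.2% and 43.7% of the rest of 2L. The 3L border was covered to 10.3%, 22.4% and 32.9%, against 11.1%, 24.7% and 43.1% of the rest of 3L. The X border was covered to 2.42%, 9.49% and 22.8%, against 5.29%, 17.9% and 31.7% of the rest of X. Border coverage was thus below that of its own arm on 2L, 3L and X in all 3 lists. The 3R border went the other way, with 13.9%, 33.1% and 50.2% covered against 12.4%, 29.0% and 46.7% of the rest of 3R. Chromosome 4 was covered to 1.83%, 1.36% and 4.43%, and the rest of the 4 arms together to 10.3%, 24.5% and 41.7%.

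Because replicate 2 covered more sequence than replicate 1 on the 4 borders and on the rest of each arm, though not on chromosome 4 or XHet, coverage was compared with that of the arms as ratios within a list. The ratio of border to rest was 0.715 in replicate 1 and 0.593 in replicate 2 for 2L, a mean of 0.654 ± 0.0857 (SD, n = 2). For 3L it was 0.924 and 0.907, a mean of 0.915 ± 0.0120 (SD, n = 2). For X it was 0.457 and 0.530, a mean of 0.494 ± 0.0513 (SD, n = 2). For 3R it was 1.12 and 1.14, a mean of 1.13 ± 0.0128 (SD, n = 2), and for chromosome 4 it was 0.178 and 0.0554, a mean of 0.116 ± 0.0864 (SD, n = 2). Each of these means lay farther from 1 than its SD. That SD is the spread between 2 libraries over the same positions and does not measure variation along an arm. A two-sided sign-flip permutation over 2 replicates cannot give a p below 0.5, so no test was made, and nothing in the labels shows that the replicates came from separate animals. When each list was limited to the 50% of its clusters with the better scores, the 3R ratio was 0.986.

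**Figure D1:**
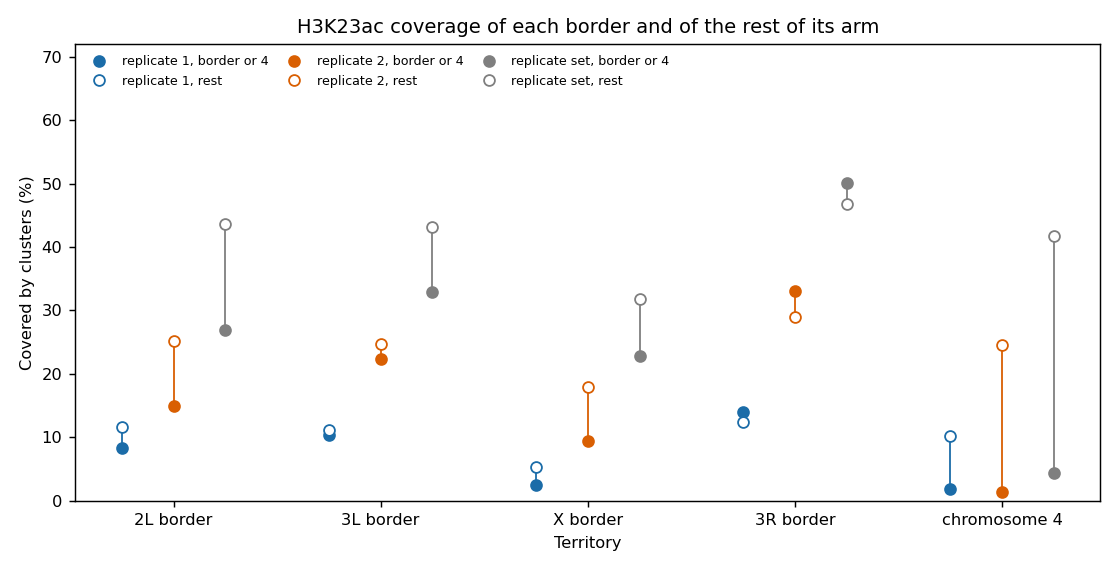
Percent of each border, or of chromosome 4, covered by H3K23ac clusters (filled circles) and of the rest of the arm (open circles; for chromosome 4, the rest of the 4 arms), with a line joining the pair of values of each list. The filled circle is below the open one on 2L, 3L, X and chromosome 4 and above it on 3R, and chromosome 4 shows the widest separation, 1.36% against 24.5% in replicate 2.

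The borders of 2L and 3L ended in long stretches with no cluster, and those of X and 3R did not. On 3L the most centromere-proximal cluster ended at position 22954839 for replicate 1 (score 0.53), at 22960565 for replicate 2 (score 0.33) and at 22974010 for the set (score 0.32). The score is the authors' enrichment value of a cluster, which behaves as a log2 value. The replicates therefore placed this edge 5.73 kb apart, and the remaining 1589, 1583 and 1570 kb of 3L held no cluster. On 2L the last cluster ended at 22107511, 22147097 and 22155696 (scores 0.47, 0.45 and 0.36). Here the replicates lay 39.6 kb apart, and 904, 864 and 856 kb up to the end of the sequence held none. On X the last cluster ended 63.2, 25.3 and 9.35 kb before the end of the sequence (scores 0.68, 0.63 and 0.43). On 3R the first cluster started 8.61, 0.871 and 0.823 kb from the end, at positions 8610, 872 and 824 (scores 0.50, 0.31 and 0.22). Neither the mapping of reads nor DNA copy number was analysed along these ends or on the Het sequences, so a stretch without clusters is not evidence that the mark is missing.

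A second measure gave the distance from the centromeric end of the sequence to the nearest 100 kb window covered at least 50% as much as the rest of the arm. It was 900 kb for 2L and 1600 kb for 3L in both replicates and in the replicate set. For X it was 0 kb in replicate 1, 100 kb in replicate 2 and 0 kb in the set, and for 3R it was 0 kb in all 3 lists. Windows without any cluster were more frequent in the borders, largely through the empty ends of 2L and 3L. Of the 978 full windows of 2L, 3L, X and 3R, 37 (3.78%) had none in either replicate, and 28 of these 37 were among the 109 border windows. By arm they were 11 of 30 border windows on 2L, 15 of 35 on 3L, 2 of 24 on X and 0 of 20 on 3R, and 9 of the 869 windows of the rest of the arms. All the empty border windows of 3L and most of those of 2L lay in the cluster-free ends described above, so this count is not separate from them. In all 3 lists together 28 windows (2.86%) were empty, of which 26 were border windows.

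**Figure D2:**
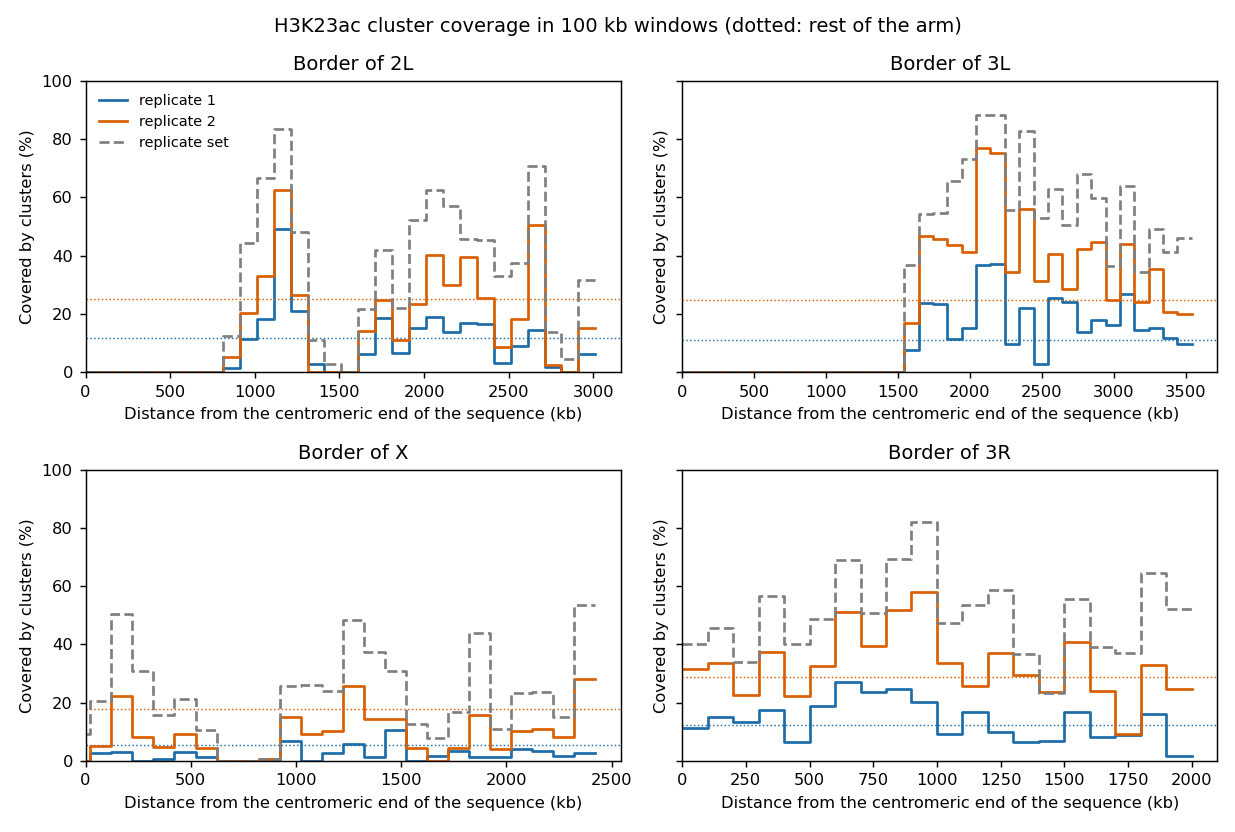
Percent of each 100 kb window covered by H3K23ac clusters in replicate 1 (blue), replicate 2 (orange) and the replicate set (dashed grey) against the distance in kb from the end of the sequence nearest the centromere, one panel per border, with dotted lines for the coverage of the rest of the arm in each replicate. Coverage is 0 at the centromeric ends of 2L and 3L, whose cluster-free stretches are 855.8 and 1570 kb long, X has an empty stretch inside its border, and 3R is covered from its first window on.

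On 3L coverage in the megabase before the empty end exceeded that of the other arm sequence, with a peak inside it and lower coverage toward the edge. The last 1000 kb before the edge, taken from the most proximal cluster of any list, were covered to 19.7% in replicate 1 and 48.0% in replicate 2, which is 1.77 and 1.95 times the rest of 3L. In steps of 500 kb from the edge outward, the ratio to the rest of 3L was 1.51, 2.03, 1.62 and 1.44 in replicate 1 and 1.67, 2.22, 1.43 and 1.17 in replicate 2. All 8 values exceeded 1, and the second step was the highest in both replicates. By 100 kb the ratio varied more, and was highest at 500 to 600 kb, with 4.61 and 3.66. It was lowest at 1400 to 1500 kb in replicate 1, with 0.355, and at 1600 to 1700 kb in replicate 2, with 0.420. The 100 kb directly at the edge were covered to 11.8% in replicate 1, 34.0% in replicate 2 and 56.3% in the set, ratios of 1.06, 1.38 and 1.31. Part of these 100 kb lies beyond the last clusters of replicates 1 and 2 and had to be empty in them. With the empty end left out, the 3L border as a whole had a ratio of 1.64 ± 0.0216 (SD, n = 2), in place of 0.915 with it.

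The densest part of the 3L border lay between positions 22300001 and 22500000. Its first 100 kb window was covered to 37.2% in replicate 1, 75.2% in replicate 2 and 88.4% in the set, and its second to 36.8%, 77.0% and 88.2%. Among the 210 windows of the rest of 3L, 1 was covered more than the densest border window in replicate 2, 5 were in replicate 1 and 1 was in the set. This stretch holds the widest border cluster of the replicate set, from 22365612 to 22401032 (35421 bp, score 0.58). Replicate 1 broke it into 6 clusters covering 61.3% of it and replicate 2 into 4 covering 98.2%. The widest border cluster of replicate 2 on 3L lay inside it, from 22384045 to 22401004 (16960 bp, score 0.67). That of replicate 1 lay elsewhere, from 21461622 to 21469773 (8152 bp, score 0.61). The next densest window, from 22100001 to 22200000, was covered to 21.9%, 56.0% and 82.8%.

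The 2L border was interrupted by interior gaps. Between positions 21394848 and 21578533, 183.7 kb, no list had a cluster. The gap was wider in the replicates, at 241.6 kb in replicate 1 and 317.4 kb in replicate 2. A further gap of 258.3 kb in replicate 1, from 20039196 to 20297506, and of 208.3 kb in replicate 2, from 20089150 to 20297426, held clusters of the set. The rest of 2L had 30 stretches of at least 100 kb without a cluster in replicate 1, the longest 330.7 kb. In replicate 2 it had 11, the longest 264.1 kb, and over all lists 1, of 125.6 kb. Both gaps of replicate 1 and the further gap of replicate 2 were thus shorter than the longest on the rest of 2L. On the centromeric side of the 183.7 kb gap the clusters resumed. From 21578534 to the last cluster of any list, 577.2 kb were covered to 18.0% in replicate 1, 25.6% in replicate 2 and 46.6% in the set, with 48, 59 and 100 clusters. The distal side, from 20000001 to 21394847, was covered to 10.5%, 21.7% and 38.7%, so the proximal zone was the denser in each list and the distal one was below the rest of 2L in each. These zones were delimited after their values were seen. The window from 21800001 to 21900000 stood highest, with 49.2%, 62.7% and 83.5% covered. In replicate 1 none of the 200 windows of the rest of 2L reached that value, the highest of them being 43.4%. In replicate 2 there were 5 above it and in the set 4.

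Several of the named clusters of the 2L border lay in that one window. They were the widest cluster of the set, from 21832586 to 21850320 (17735 bp, score 0.65), and the highest-scoring cluster of each replicate. The latter ran from 21833318 to 21836839 in replicate 1 (score 0.73) and from 21839270 to 21847178 in replicate 2 (score 0.80). Replicate 1 covered 76.8% of the set's cluster with 3 clusters, and replicate 2 covered 90.6%, also with 3. The next densest windows of the border, 20300001 to 20400000 and 20900001 to 21000000, were covered to 14.4% and 18.8% in replicate 1 and 50.5% and 40.3% in replicate 2. The widest clusters of the replicates on this border were at 20770867 to 20782870 in replicate 1 (12004 bp, score 0.65) and 20686532 to 20695688 in replicate 2 (9157 bp, score 0.71).

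Coverage of 2L was low in the last step before the edge and rose behind it. Counted back from the last cluster of any list, which was the set's, the first 100 kb were covered to 1.51%, 9.12% and 25.01%. The second were covered to 19.8%, 33.4% and 59.1%, and the fourth to 41.8%, 56.7% and 76.9%. The last clusters of replicates 1 and 2 ended at 22107511 and 22147097, so part of the first step lies beyond their own edges and had to be empty. In 500 kb steps the ratio to the rest of 2L was 1.74, 0.557, 1.35 and 0.550 in replicate 1 and 1.17, 0.382, 1.24 and 0.658 in replicate 2. The second step holds the interior gap, and both replicates alternated in the same order. With the empty end left out, the ratio of the border was 0.914 ± 0.1197 (SD, n = 2), which lay below 1 by less than its SD.

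**Figure D3:**
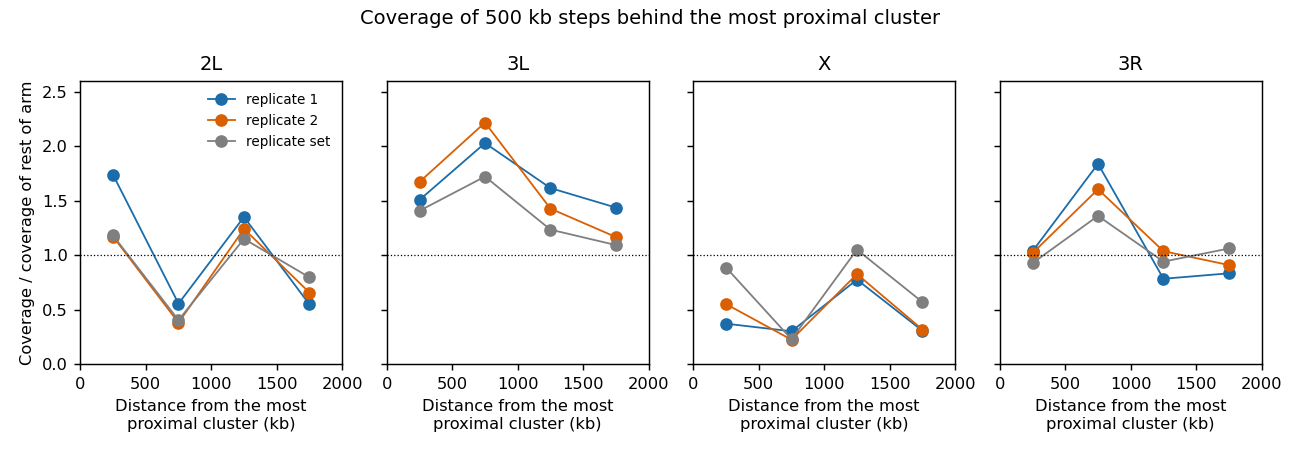
Coverage of consecutive 500 kb steps divided by the coverage of the rest of the same arm, against the distance in kb from the most centromere-proximal cluster of any list (points at the middle of each step, dotted line at 1). On 3L all steps are above 1, with 2.03 and 2.22 in the second step of replicates 1 and 2, while on X replicates 1 and 2 stay below 1 in every step.

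The X border was covered less than the rest of X in each 500 kb step of both replicates. In steps of 500 kb from its edge the ratio to the rest of X was 0.373, 0.303, 0.777 and 0.308 in replicate 1 and 0.552, 0.226, 0.828 and 0.319 in replicate 2, below 1 in all 8 cases. In the set the third of these steps had a ratio of 1.05. Single 100 kb steps exceeded the rest of X, as at 1200 to 1300 kb with ratios of 1.30, 1.58 and 1.51 in the 3 lists and at 1400 to 1500 kb with 2.02 in replicate 1. An interior stretch of 349.5 kb, from 21500603 to 21850114, had no cluster in any list, while the rest of X had 5 stretches of at least 100 kb, the longest 117.3 kb. Beyond it toward the centromere the clusters resumed at 1.96% in replicate 1, 9.41% in replicate 2 and 26.4% in the set, which was below the 3.16% and 11.7% of the distal side in the replicates and near its 26.7% in the set. Only 1 of 24 windows exceeded the rest of X in both replicates, against 32.3% of all windows of the 4 arms and 55 of the 200 windows of the rest of X. For the other borders this count was 8 of 30 on 2L (26.7%), 13 of 35 on 3L (37.1%) and 9 of 20 on 3R (45.0%), against 35.5%, 30.5% and 36.7% of the windows of the rest of these arms.

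Individual X clusters were short. The widest of replicate 1 ran from 21944224 to 21946210 (1987 bp, score 0.56), that of replicate 2 from 20072500 to 20077854 (5355 bp, score 0.94) and that of the set from 20068258 to 20075890 (7633 bp, score 0.52). Replicate 1 had no cluster in either of the latter regions. The highest scores of the replicates were 0.79, at 20435665 to 20437089 in replicate 1, and 1.36, at 20169670 to 20171264 in replicate 2. By the mean of the replicates, the densest windows of the X border were 21100001 to 21200000 (5.81% and 25.9% in the replicates), 20000001 to 20100000 (2.82% and 28.1%) and 22200001 to 22300000 (3.18% and 22.1%). The last of these lies 122.8 kb from the end of the sequence, a distance at which 2L and 3L had no cluster in any list.

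The 3R border was covered from the first window on, and most densely 500 to 1000 kb from the end of the sequence. Its steps of 500 kb had ratios to the rest of 3R of 1.04, 1.84, 0.785 and 0.835 in replicate 1 and 1.02, 1.61, 1.04 and 0.911 in replicate 2. The 3 densest windows were 600001 to 700000 (27.2% and 51.2%), 900001 to 1000000 (20.3% and 57.8%) and 800001 to 900000 (24.7% and 51.9%). Between 500 and 1000 kb lay the widest cluster of the set, from 852324 to 868364 (16041 bp, score 0.47), as did the widest of replicate 1, from 739253 to 747795 (8543 bp, score 0.56), and its highest-scoring one, from 688223 to 690528 (score 0.72). In replicate 2 the widest ran from 1065707 to 1075493 (9787 bp, score 0.69) and the highest-scoring from 1849259 to 1850638 (score 0.89). No 3R border window was empty in either replicate, the lowest being 1.68% in replicate 1 and 9.20% in replicate 2.

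The rule's border starts did not coincide with a step in coverage common to all arms. In the 500 kb just outside and just inside the start, coverage was 12.2% and 6.27% on 2L, 17.8% and 15.6% on 3L, 3.28% and 2.70% on X, and 7.67% and 10.3% on 3R in replicate 1. In replicate 2 the values were 27.7% and 17.3%, 31.5% and 28.8%, 12.3% and 12.3%, and 23.1% and 26.4%. In replicate 1 the first cluster inside and the last outside started at 20001030 and 19990218 on 2L (scores 0.57 and 0.60), 21030350 and 20981133 on 3L (0.45 and 0.49), 20021825 and 19950828 on X (0.63 and 0.69) and 1963532 and 2014303 on 3R (0.58 and 0.50).

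Scores and widths of border clusters stayed close to those of the same arms. Over the 4 borders the median score was 0.54 in replicate 1 and 0.53 in replicate 2, against 0.55 in each for the rest of the arms. The mean difference was -0.019 ± 0.0057 (SD, n = 2) with the arms pooled. By arm the difference was -0.012 and -0.031 in replicates 1 and 2 on 2L, and -0.011 and -0.028 on 3R. On X it was -0.0016 and -0.012, and on 3L it changed sign, at -0.0098 and 0.013. Median widths were 1676 and 1926 bp against 1692 and 1939 bp, a mean difference of -14.5 ± 2.12 bp (SD, n = 2). The borders were not alike in width. The median of X border clusters differed from that of other X clusters by -208, -191 and -189 bp (replicates 1 and 2 and the set), whereas 3L border clusters were wider by 31.5, 154 and 315 bp. On 3L, 32 of 289 border clusters of replicate 2 (11.1%, 95% exact binomial interval 7.70 to 15.3) were at least 5000 bp wide, against 7.71% of all clusters of that list and 134 of 2125 (6.31%) on the rest of 3L. In replicate 1 the count was 6 of 177 (3.39%, interval 1.25 to 7.23) against 1.88% of the list. On X it was 1 of 118 in replicate 2 and 0 of 39 in replicate 1, against 5.15% and 0.343% on the rest of X. Of the set's clusters 2.33% were at least 10000 bp wide. On the borders this held for 11 of 353 on 3L, 8 of 314 on 2L, 5 of 357 on 3R and 0 of 288 on X. On the rest of 3L, 2L, 3R and X it held for 2.25%, 2.39%, 2.68% and 1.17%. Intervals cover counting error only.

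The replicates overlapped on the borders about as often as elsewhere, with a higher share on 3L and a lower one on X. Of replicate 1's clusters 81.6% overlapped a replicate 2 cluster by at least 1 bp, and on the 4 borders 401 of 475 did (84.4%, exact interval 80.8 to 87.6). By border this was 97 of 117 on 2L (82.9%), 163 of 177 on 3L (92.1%, interval 87.1 to 95.6), 22 of 39 on X (56.4%, interval 39.6 to 72.2) and 119 of 142 on 3R (83.8%). On the rest of 3L it was 79.2% (interval 76.8 to 81.5) and on the rest of X 71.4% (interval 67.5 to 75.0). The intervals of border and rest overlapped on X and not on 3L, and these differences were not tested. Of replicate 2's clusters 39.9% overlapped replicate 1. On the borders this held for 91 of 188 on 2L (48.4%) and 148 of 289 on 3L (51.2%). It held for 23 of 118 on X (19.5%, interval 12.8 to 27.8) and 109 of 267 on 3R (40.8%). On the rest of 2L, 3L, X and 3R the shares were 42.5%, 41.5%, 25.8% and 41.8%. Denser and wider clusters meet another list more often whatever their position, and the part of density in these shares was not tested. The sequence inside clusters of both replicates, as a share of that inside either (the Jaccard index), was 0.340 on the 2L border, 0.340 on 3L, 0.106 on X and 0.297 on 3R, against 0.293, 0.278, 0.167 and 0.289 on the rest of these arms. Across the 109 full border windows, which share their libraries and include the empty ends, coverage in the replicates had a Spearman's rho of 0.921, and across the 81 windows with a cluster in a replicate it was 0.842.

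In the replicate set the X border was again the lowest, and 3L and 3R were the highest. Of all its clusters 60.7% overlapped a replicate and 21.8% overlapped both. On the borders 242 of 353 on 3L (68.6%) and 251 of 357 on 3R (70.3%) overlapped at least 1 replicate. On 2L this held for 176 of 314 (56.1%) and on X for 124 of 288 (43.1%). In the same order, 119 (33.7%), 98 (27.5%), 70 (22.3%) and 20 (6.94%) clusters overlapped both. On the rest of X 56.2% overlapped at least 1 replicate and 13.7% overlapped both, each also below the rest of 2L, 3L and 3R. The set is made from the same libraries, so this overlap is not independent of the replicates.

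On chromosome 4 the few clusters lay in 7 groups, of which 4 held clusters of all 3 lists. Replicate 1 had 14 clusters from 410893 to 1109091, replicate 2 had 10 from 410467 to 986526, and the set had 34 from 398146 to 1322258. The first 398.1 kb of the sequence, next to the centromere, therefore held no cluster in any list. The groups were made by joining set clusters less than 50 kb apart. The richest spanned 522362 to 552462 (30.1 kb), with 6 clusters of replicate 1, 5 of replicate 2 and 8 of the set, and was covered to 35.4%, 31.5% and 61.9%. That local density is above the 10.3%, 24.5% and 41.7% of the rest of the arms, but the group was picked for holding clusters. The group from 398146 to 440186 held 2, 2 and 9 clusters, and the group from 721210 to 741916 held 4, 1 and 7, where no cluster of one replicate overlapped one of the other. The group from 828340 to 862652 held 1, 1 and 5. The remaining groups held 2, 2 and 1 clusters of the set and at most 1 of either replicate.

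Both replicates called the same sequence on chromosome 4 in 6 places, 4 of them in the richest group. Of replicate 1's clusters there 6 of 14 overlapped replicate 2 (42.9%, exact interval 17.7 to 71.1), against 81.6% of its whole list. Of replicate 2's clusters 6 of 10 overlapped replicate 1 (60.0%, interval 26.2 to 87.8), against 39.9% of its whole list. The highest-scoring clusters of both were the same region, 541635 to 543981 in replicate 1 (score 0.56) and 541932 to 544618 in replicate 2 (score 0.54), and the latter was also the widest of its list at 2687 bp. The other shared clusters of replicate 1 started at 410893, 522448, 544911, 550103 and 858339, with scores of 0.49, 0.47, 0.51, 0.54 and 0.56. Their counterparts in replicate 2 started at 410467, 522446, 545269, 550152 and 857775, with scores of 0.47, 0.44, 0.53, 0.32 and 0.51. Clusters of replicate 1 alone started at 437622, 533579, 536599, 722384, 728877, 734077, 736083 and 1107479, with scores from 0.43 to 0.55. Those of replicate 2 alone started at 415972, 526431, 725239 and 984789, with scores of 0.45, 0.51, 0.48 and 0.44. All 24 were at most 2687 bp wide, and 23 of them overlapped the set, the exception being the one at 1107479.

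**Figure D4:**
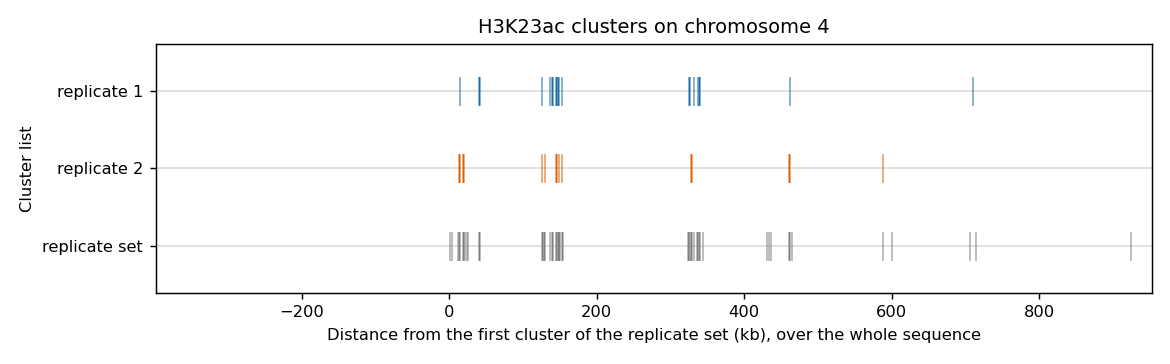
Position of every H3K23ac cluster on chromosome 4 in the 3 lists, to scale, as distance in kb from the first cluster of the replicate set, with the axis spanning the whole sequence. Clusters of both replicates fall in 4 of the 7 groups, with 6 and 5 clusters in the group of 30.1 kb, and the left 398.1 kb are empty.

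The assembled heterochromatin sequences were nearly free of clusters. XHet (204.1 kb) had 1 in replicate 1, from 46015 to 47524 (score 0.56), none in replicate 2 and 6 in the set, none of which overlapped a replicate. The widest of these ran from 27622 to 29516 (1895 bp, score 0.34). On 3RHet (2518 kb) there was none in either replicate, and the set's 2 clusters lay at 2494334 to 2495474 (score 0.36) and 2505050 to 2506298 (score 0.29), within 22.03 kb of the end of the sequence. The 3 lists had none on 2LHet (368.9 kb), 3LHet (2555 kb) or YHet (347.04 kb).

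A few of the highest scores of the replicate set belonged to very short clusters of the borders and XHet. Of all set clusters 0.172% had a score of at least 1, 31 in number, and 9 of them were members, 0.665% of the 1354 (exact interval 0.304 to 1.26). The rest of the 4 arms had 15 of 13403 (0.112%, interval 0.0627 to 0.185). On 2L they started at 20005904 (score 1.75), 20309140 (score 3.16) and 21693074 (score 1.82). On 3L there was 1, from 22796858 to 22797872, with the highest score of the set (3.33). On 3R they started at 1273396 (score 1.40) and 1984314 (score 3.16), on X at 21333020 (score 1.10) and 22312460 (score 1.20), and on XHet at 123216 (score 1.07). No arm accounted for them alone. None overlapped a cluster of either replicate, and 8 of the 9 were narrower than 1301 bp, the narrowest cluster of the replicates. This was not particular to the members, since of the other 22 set clusters at this score 1 overlapped a replicate and 18 were narrower than that, with a median width of 1016 bp against 1005 bp. Chromosome 4 had no set cluster at this score, its highest being 0.63 at 861644 to 862652, which was also absent from both replicates.

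When 2 raised to the score was divided by one constant per list, 97.7% of the set's values became fractions of integers, and these 9 had fractions with denominators of 1 to 18 in lowest terms, as 9 to 1 for the first and 8 to 1 for the next pair. The other 22 set clusters scoring at least 1 had denominators of 1 to 31, so small denominators were not particular to the members. For members of the set scoring below 1 the median denominator was 302.5. The constant was the one that gave the simplest fractions, and a lowest-terms denominator is only a lower bound of the number divided by. In replicate 1 itself 0 of 490 members scored at least 1, where 0.0479% of all clusters did. In replicate 2 it was 2 of 872 members (0.229%, exact interval 0.0278 to 0.826), where 0.162% of all clusters did. These counts are too small to set members apart from the list. Both of the replicate 2 members were on the X border, at 20169670 to 20171264 (1.36) and 20462863 to 20464710 (1.06).

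**Figure D5:**
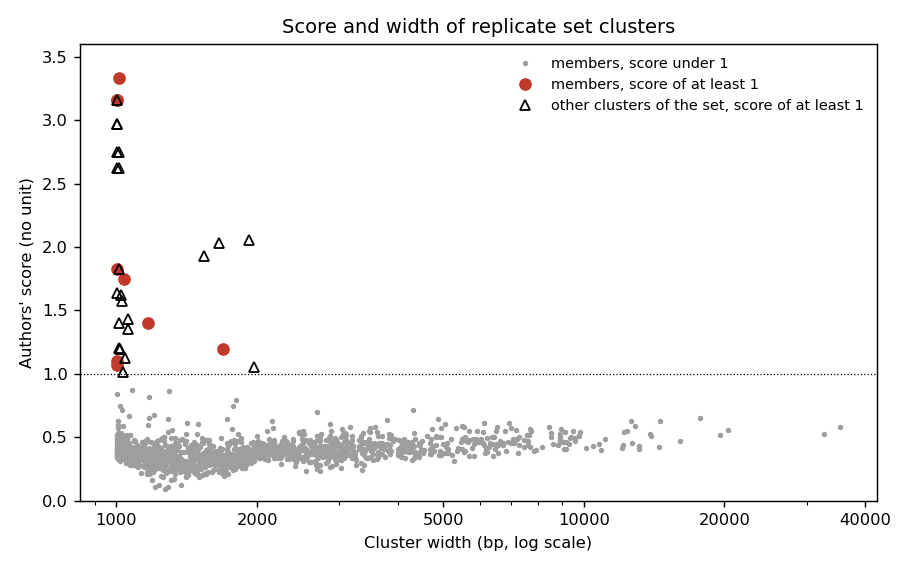
The authors' score of each replicate set cluster against its width in bp on a log axis, for members scoring under 1 (grey points) and at least 1 (red circles), and for the other clusters of the set scoring at least 1 (open triangles). All red circles lie at widths from 1001 to 1693 bp, whereas the widest member, at 35421 bp, has a score of 0.58.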

How the data were processed

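The authors deposited 3 lists of enriched regions in FlyBase release 5 coordinates, per the file headers, one of each ChIP library and one of both together. Per the submitters' processing notes, Bowtie 0.12.7 was the aligner. How clusters were called and how the set was built is not stated in the labels or headers. Each region carries a score deposited by the authors, with no stated scale, which was used only within a list. Read depth is unknown and the spread between replicates may be technical, so differences in list length are not differences in H3K23ac.

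Members and lists were chosen with earlier results of these data known. Named regions were the widest, highest-scoring and most proximal clusters of each territory, its 3 densest windows, all replicate clusters on chromosome 4 and Het sequences, and set members scoring at least 1. Covered sequence is the union of clusters, in 100 kb windows. Overlap means at least 1 shared bp, and exact (Clopper-Pearson) 95% intervals cover counting error only. The score ratios used denominators up to 2000 and a relative tolerance of 1e-11. The tools were scipy 1.17.1, numpy 2.4.6 and Python 3.11.15, with matplotlib 3.10.9 for the plots. Coverage, overlap and edge distances were tested on simulated data. Alternatives were other border starts, windows, overlaps and score limits, each replicate alone, and borders without their empty end. No genome or annotation of this build was used, so neither genes nor sequences are given.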

Additional observations from a re-analysis of the deposited data

How the results depend on the processing

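With the border measured only up to its most proximal cluster, the coverage ratio was 1.64 on 3L, above 1 in place of below it, and 0.914 on 2L. These follow from leaving out sequence with no cluster. With only the better-scored 50% of clusters kept, the ratio was 0.986 on 3R, below 1 in place of above it, 0.559 on 2L and 0.939 on 3L, and the cause was not tested. With the border start 500 kb farther from the centromere it was 0.990 on 3L and 1.04 on 3R, and with the start 500 kb nearer it was 0.849 and 1.22. As clusters per Mb it was 0.848 on 3L, 0.598 on X and 1.17 on 3R. The distance to the first covered window on 2L was 950 kb in 50 kb windows and 1000 kb in 200 kb windows, and on X it was 400 ± 566 kb (SD, n = 2) in 200 kb windows. The shares of border clusters found in the other replicate were 44.4% and 24.5% when 50% of both clusters had to be shared, and 58.8% and 30.2% among the better-scored 50%. The median width difference was -28 bp with the start 500 kb farther out and 13.75 bp with it 500 kb nearer, a change of sign. As the mean of the 4 differences within an arm, chosen after seeing the data, it was -55.25 bp and the score difference -0.012. Of the 12 clusters of the set with a score of at least 2, 3 were members, and of the 57 with at least 0.8, 13 were.

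Each replicate alone gave ratios of 0.593 to 0.715 on 2L, 0.907 to 0.924 on 3L, 0.457 to 0.530 on X, 1.12 to 1.14 on 3R and 0.0554 to 0.178 on chromosome 4. It gave distances of 0 to 100 kb on X and the same distances on the other arms, score differences of -0.023 to -0.015, and width differences of -16 to -13 bp. Of 72 alternatives, 48 moved a value by less than a set limit, or not at all. The limit was the spread between replicates or the counting interval, and for the counts at other score limits a fold change. A further 21 moved the value more and 3 changed its direction. A replicate taken alone cannot differ from the mean of the pair by more than its SD. Those alternatives, all among the 48, could therefore not have been among the 21 and do not show stability. The overlap shares need both replicates. No paired analysis was possible because no list of the inputs was used here and only 1 group had values. Unknown depth limits every comparison between lists.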
